A study of Mus musculus with 12 samples.

Results

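Described here are 10 genes that move salt, short-chain fatty acids and water across the colonic epithelium: the anion exchangers Slc26a3 and Slc26a2, the sodium/proton exchangers Slc9a3 and Slc9a2, the fatty acid transporters Slc5a8 and Slc16a1, the chloride channel genes Cftr and Clca4a, and the aquaporins Aqp8 and Aqp4. They were taken by gene symbol from a list of such transporters, with no measured value in the rule, and are 10 of the 55304 genes in the count files. The list was drawn up with earlier results of these data known. All 10 passed the filter on low counts that left 15743 genes for testing, with 558 to 14061 reads per gene and library.

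The colon takes up sodium chloride mainly by pairing a sodium/proton exchanger with a chloride/bicarbonate exchanger in the apical membrane, and water follows. Butyrate and other short-chain fatty acids made by bacteria enter colonocytes through sodium-coupled and proton-coupled monocarboxylate transporters and serve these cells as fuel. Absorptive transporters are typical of differentiated surface cells, whereas Cftr, the chloride channel of fluid secretion, is typical of crypts.

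The study measured how loss of Ehf, an ETS family transcription factor of epithelia, changes RNA levels in the mouse colonic epithelium. Total RNA was sequenced from 12 libraries of C57BL/6 mice aged 6 weeks, 4 in each of 3 groups, and the epithelium had been released from the opened colon with EDTA. EHF IKO mice carried the Ehf intestinal knockout and received tamoxifen. Control-OIL mice were labelled wild-type, received sunflower oil, and carry the same EVCER prefix in their source names as EHF IKO. Control-TMX mice were labelled wild-type, received tamoxifen and came from the Villin CreERT2 line, whose Cre is driven by the promoter of an intestinal epithelial gene. EHF IKO therefore differed from Control-OIL in both the deletion and tamoxifen, and from Control-TMX in both the deletion and the line. Which exons were deleted is not in the labels, nor do they state that each library is a separate mouse, so p-values measure the spread between these libraries. In bulk RNA, fewer cells of a type and less RNA per cell cannot be told apart.

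Library totals ran from 7421411 to 10344161 counts, with a median of 8138352.5. EHF IKO replicate 2 had 36109 genes with a count, against 23588 to 25966 in the other libraries. Mitochondrial genes took 10.7% to 26.3% of a library's counts. The part of either in the values below was not tested. Ehf counted over all exons, which does not measure the deletion, had a CPM (a count divided by the TMM-scaled library total) of 428 ± 46.4 in Control-OIL, 345 ± 21.0 in Control-TMX, and 341 ± 30.1 with the knockout (SD, n = 4 each). All 9 epithelial markers were detected in every group, with a summed level of 7009 to 10230 CPM. EHF IKO replicate 4 stood apart: its surface colonocyte score, the mean centred log2 CPM of 14 markers, was -0.289, against 0.137 to 0.305 in the other 3 EHF IKO libraries. The fold changes of the 10 genes in EHF IKO against each control, and each related gene's call, are given with and without replicate 4. This library was singled out from these same data. Over the 12 libraries the surface colonocyte score correlated with Clca4a at 0.83, Aqp8 at 0.89, Slc5a8 at -0.79 and Aqp4 at -0.84. Adjusted p-values without replicate 4 are therefore a description and not a separate test of these genes.

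Per kilobase of exon, Aqp8, a water channel of surface colonocytes, had the highest level of the 10 genes in each of the 3 groups and Cftr the lowest. The 12-library means were 201 CPM per kilobase for Aqp8, 106.7 for Slc26a3, 99.8 for Slc26a2, 89.1 for Clca4a, 73.2 for Slc9a3, 63.3 for Slc16a1, 58.0 for Aqp4, 56.6 for Slc5a8, 40.3 for Slc9a2 and 20.4 for Cftr. Among the 15743 genes tested, these levels placed Aqp8 at rank 89 and Cftr at rank 1647. Within each group, neighbours in the order of group means overlapped in their ranges, with the exception of Slc9a2 and Cftr, which were separate in all 3 groups. Clca4a was the gene that changed place most between groups: it was at rank 8 of 10 in Control-OIL, with 47.1 ± 17.2 CPM per kilobase, at rank 5 in Control-TMX, with 69.7 ± 14.7, and at rank 2 in EHF IKO, with 150.6 ± 66.3 (SD, n = 4 each). Together the 10 genes took 0.288% to 0.556% of a library's counts, and the 95% Wilson interval, which covers counting error only, was 0.284% to 0.291% for the lowest share and 0.551% to 0.562% for the highest.

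**Figure D1:**
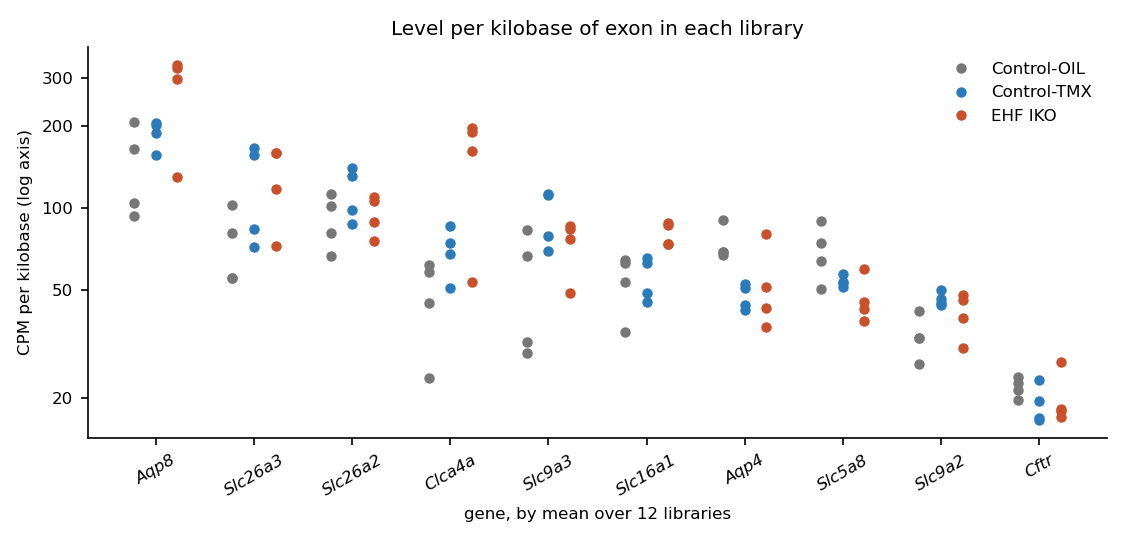
Level of each of the 10 transporter genes in CPM per kilobase of exon (log axis) in each of the 12 libraries, coloured by group and ordered by the mean over all libraries. Aqp8 stands at the top and Cftr at the bottom, and 3 of 4 EHF IKO libraries lie above all controls for Clca4a.

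No member passed an adjusted p of 0.05 in any comparison by edgeR's quasi-likelihood test with Benjamini-Hochberg adjustment over all genes tested. Of all genes tested, 1.68% were called in EHF IKO against Control-OIL, 0.8% against Control-TMX, 1.72% against the mean of both controls and 0.0826% in Control-TMX against Control-OIL. At an unadjusted p under 0.05 the members numbered 6, 2, 4 and 4 of 10 in these comparisons, beside 11.92%, 11.87%, 11.59% and 12.88% of all genes tested. limma-voom also called 0 members in each. DESeq2 called 3 members against Control-OIL (3.39% of all genes), 0 against Control-TMX (1.94%), 2 against the mean of both controls (2.99%) and 0 between the controls (1.25%). Without the filter on low counts edgeR called 3, 1, 2 and 2 members in the 4 comparisons (1.76%, 1.21%, 2.02% and 1.07% of all genes), and with a region score as a covariate, described below, 2, 0, 1 and 1 (3.37%, 0.934%, 2.03% and 4.58%). Keeping genes with an average log2 CPM of at least 1 gave 0, 0, 1 and 0 (1.74%, 0.916%, 1.81% and 0.0358%). The median size of the log2 fold change, without sign, was 0.53 over the members against Control-OIL and 0.15 over all genes tested, and 0.24 and 0.16 against Control-TMX. The comparisons share libraries and are not independent of each other. The members were listed with earlier results of these data known, so their contrast with all genes is a description only.

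**Figure D2:**
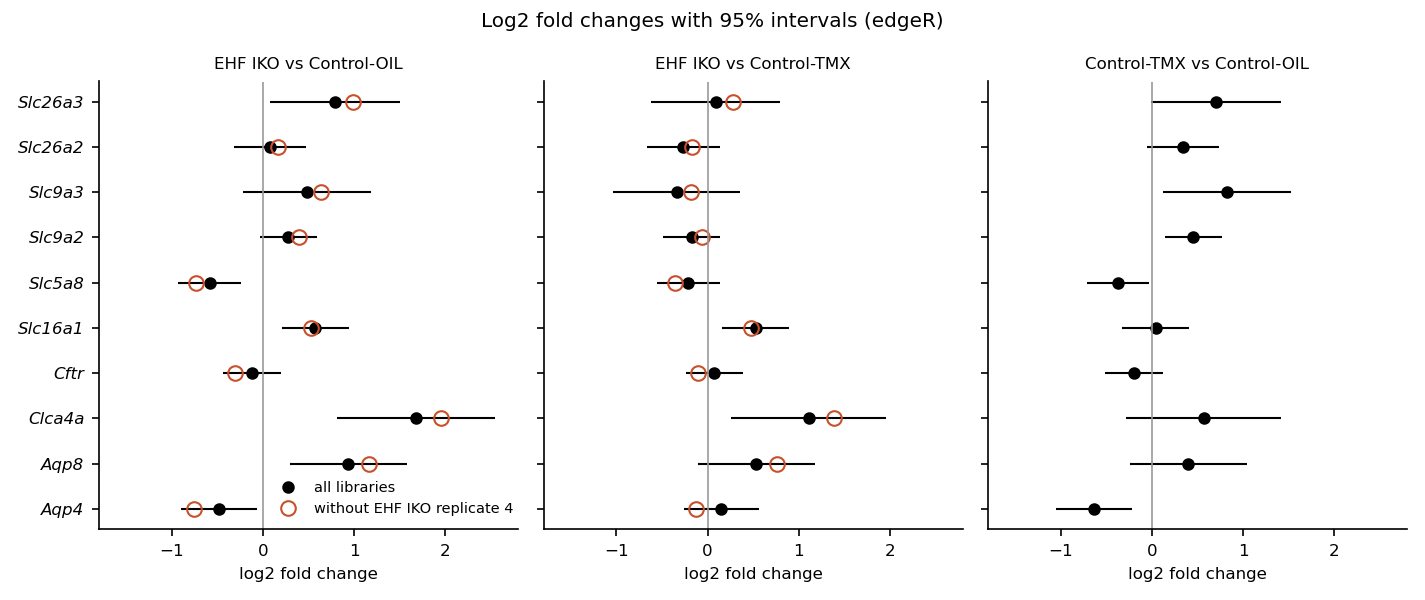
Log2 fold change of each of the 10 transporter genes in EHF IKO against each control and in Control-TMX against Control-OIL, with the 95% interval of the edgeR fit over all libraries and the value without EHF IKO replicate 4. Clca4a has the largest value in both comparisons with EHF IKO, and leaving out replicate 4 raises it from 1.68 to 1.95 against Control-OIL.

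The EHF IKO values of both anion exchangers lay inside the range of the controls. Slc26a3 (chromosome 12, 31390871 to 31473917, plus strand, GRCm38), the apical chloride/bicarbonate exchanger whose loss in humans causes congenital chloride diarrhoea, stood at 353, 514, 353 and 651 CPM in Control-OIL replicates 1 to 4, at 1059, 997, 535 and 456 in Control-TMX, and at 1014, 1017, 747 and 462 in EHF IKO. Replicates 1 and 2 were the high ones in both tamoxifen groups, and all 3 groups overlapped. EHF IKO differed from Control-OIL by a log2 fold change of 0.79 ± 0.33 (SE, edgeR adjusted p = 0.342) and from Control-TMX by 0.09 ± 0.33 (edgeR adjusted p = 0.945). Without EHF IKO replicate 4 these values were 0.98 (adjusted p = 0.131) and 0.28 (adjusted p = 0.775), by the same test. With the region score as a covariate, described below, Slc26a3 passed against Control-OIL (1.29, edgeR adjusted p = 0.0433), and with the stromal score, also described below, the sign was the opposite (-0.17, adjusted p = 0.941). Slc26a2, a sulphate and anion exchanger, had the highest CPM of the 10 genes, with 1117 ± 252 CPM in Control-OIL, 1412 ± 314 in Control-TMX, and a mean of 1176 ± 198 among EHF IKO libraries (SD, n = 4 each). Its log2 fold change was 0.07 ± 0.19 against Control-OIL and -0.26 ± 0.19 against Control-TMX, smaller than or close to the spread between libraries, and without EHF IKO replicate 4 it was 0.17 (edgeR adjusted p = 0.693) and -0.17 (0.762).

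Xist, expressed from the inactive X chromosome of females, was high in replicates 1 and 2 of every group and near 0 in replicates 3 and 4. Slc26a3 was 0.53 ± 0.23 higher on the log2 scale in the Xist-high libraries (unadjusted p = 0.0386 and adjusted p = 0.737 in edgeR), with means of 825 and 534 CPM. Of all genes tested, 0.0699% were called between the sexes. With sex as a covariate no member was called in any of the 4 comparisons.

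The sodium/proton exchangers were, like Slc26a3, higher in both tamoxifen groups than in Control-OIL, by amounts that did not pass the test. Slc9a3, the main apical exchanger of sodium absorption, stood at 178, 366, 161 and 456 CPM in Control-OIL, at 615, 619, 433 and 384 in Control-TMX and at 471, 459, 424 and 268 in EHF IKO. The Control-OIL libraries were split between low values in replicates 1 and 3 and values within the tamoxifen range in replicates 2 and 4. The log2 fold change of Slc9a3 was 0.82 ± 0.32 in Control-TMX against Control-OIL (edgeR adjusted p = 0.325), 0.48 ± 0.32 in EHF IKO against Control-OIL (0.641) and -0.34 ± 0.32 against Control-TMX (0.739). With EHF IKO replicate 4 left out, the latter values were 0.63 (0.386) and -0.185 (0.873). Slc9a2, a related apical exchanger, stood at 233, 292, 187 and 232 CPM in Control-OIL, at 323, 311, 350 and 307 in Control-TMX and at 319, 335, 276 and 213 in EHF IKO. All 4 Control-TMX libraries were above all 4 Control-OIL libraries, with a log2 fold change of 0.45 ± 0.15 (edgeR adjusted p = 0.255), and EHF IKO overlapped both. EHF IKO differed from Control-OIL in Slc9a2 by 0.28 ± 0.15 and from Control-TMX by -0.18 ± 0.15, and without replicate 4 by 0.39 (edgeR adjusted p = 0.106) and -0.06 (0.891). Of all genes tested, 3.68% were higher in Control-TMX than in Control-OIL with no overlap.

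The fatty acid transporters had opposite directions. Slc16a1 (chromosome 3, 104638668 to 104658462, plus strand), the proton-coupled monocarboxylate transporter, stood at 286, 278, 236 and 155 CPM in Control-OIL, at 200, 216, 278 and 290 in Control-TMX and at 325, 382, 327 and 389 in EHF IKO. All 4 EHF IKO libraries were above all 8 control libraries, and Slc16a1 was the 1 member of 10 with that pattern, beside 1.17% of all genes tested. Its log2 fold change was 0.57 ± 0.17 against Control-OIL (edgeR adjusted p = 0.126), 0.53 ± 0.17 against Control-TMX (0.218) and 0.55 ± 0.15 against the mean of both controls (0.0798). DESeq2 called it against the mean of both controls, with an adjusted p of 0.0238. Same-numbered Control-TMX and EHF IKO libraries deviated together, as did different-numbered ones of the same sex, so pairing was not established. A fit of those 2 groups with the replicate number as a block was added after seeing the data. In it Slc16a1 rose by 0.53 (edgeR adjusted p = 0.0352) and was the 1 member called, beside 1.92% of all genes. With the block over all 12 libraries the adjusted p was 0.372. Without EHF IKO replicate 4 the log2 fold change was 0.52 against Control-OIL (edgeR adjusted p = 0.144), 0.48 against Control-TMX (0.281) and 0.50 against the mean (0.117), and the other 3 libraries still lay above every control.

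Markers of colon region moved with Slc16a1. The region score, the mean centred log2 CPM of 8 distal markers minus that of 7 proximal markers, was 1.37 in Control-OIL replicate 4, where Slc16a1 was lowest, and from -1.08 to -0.331 in EHF IKO. It was from -0.738 to 1.37 in Control-OIL and from -0.659 to 0.895 in Control-TMX. Of its markers, edgeR called distal Scnn1b as lower in each comparison of EHF IKO and proximal Sycn as higher against Control-OIL. The score is therefore not independent of the groups compared. With this score as a covariate, the log2 fold change of Slc16a1 against the mean of both controls was 0.30 (edgeR adjusted p = 0.245).

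Slc5a8 (chromosome 10, 88885992 to 88929515, plus strand), the sodium-coupled monocarboxylate transporter, stood at 479, 341, 398 and 269 CPM in Control-OIL, at 285, 283, 273 and 305 in Control-TMX and at 226, 206, 240 and 319 in EHF IKO. The first 3 EHF IKO libraries were below every control library, and replicate 4 was above all 4 Control-TMX libraries. Without replicate 4, 16.9% of all genes tested did not overlap Control-OIL and 13.6% did not overlap Control-TMX, in either direction. The share that did not overlap both controls together was not counted. Over all libraries EHF IKO differed from Control-OIL by -0.59 ± 0.16 (edgeR adjusted p = 0.0880) and from Control-TMX by -0.21 ± 0.16 (0.659), and DESeq2 called the former with an adjusted p of 0.0310. When EHF IKO replicate 4 was left out, Slc5a8 fell by 0.73 against Control-OIL (edgeR adjusted p = 0.0125) and by 0.55 against the mean of both controls (0.0409). Against Control-TMX the value was then -0.36 (0.324). Without Control-OIL replicate 4, which had the lowest value of its group, Slc5a8 also passed against Control-OIL (-0.71, edgeR adjusted p = 0.035, with 0.871% of all genes called). With the stromal score as a covariate the value against Control-OIL over all libraries was -0.12 (0.908), with the surface colonocyte score it was -0.33 (0.430), and with the region score Slc5a8 passed (-0.80, edgeR adjusted p = 0.0164). Slc5a8 correlated with the stromal and surface scores at -0.79 over the 12 libraries. The surface score was -0.379 to -0.0292 in Control-OIL and 0.0180 to 0.146 in Control-TMX. All 14 of its markers had a log2 fold change above 0 in EHF IKO against Control-OIL, and edgeR called Krt20. The surface score is therefore not independent of the groups compared, here or for the genes below.

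The ratio of Slc16a1 to Slc5a8 per kilobase, chosen after the values were seen and therefore not tested, was 0.697 to 0.983 in Control-OIL, 0.845 to 1.23 in Control-TMX, but 1.47 to 2.24 in EHF IKO. All 4 EHF IKO libraries, replicate 4 included, were above all 8 controls.

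**Figure D3:**
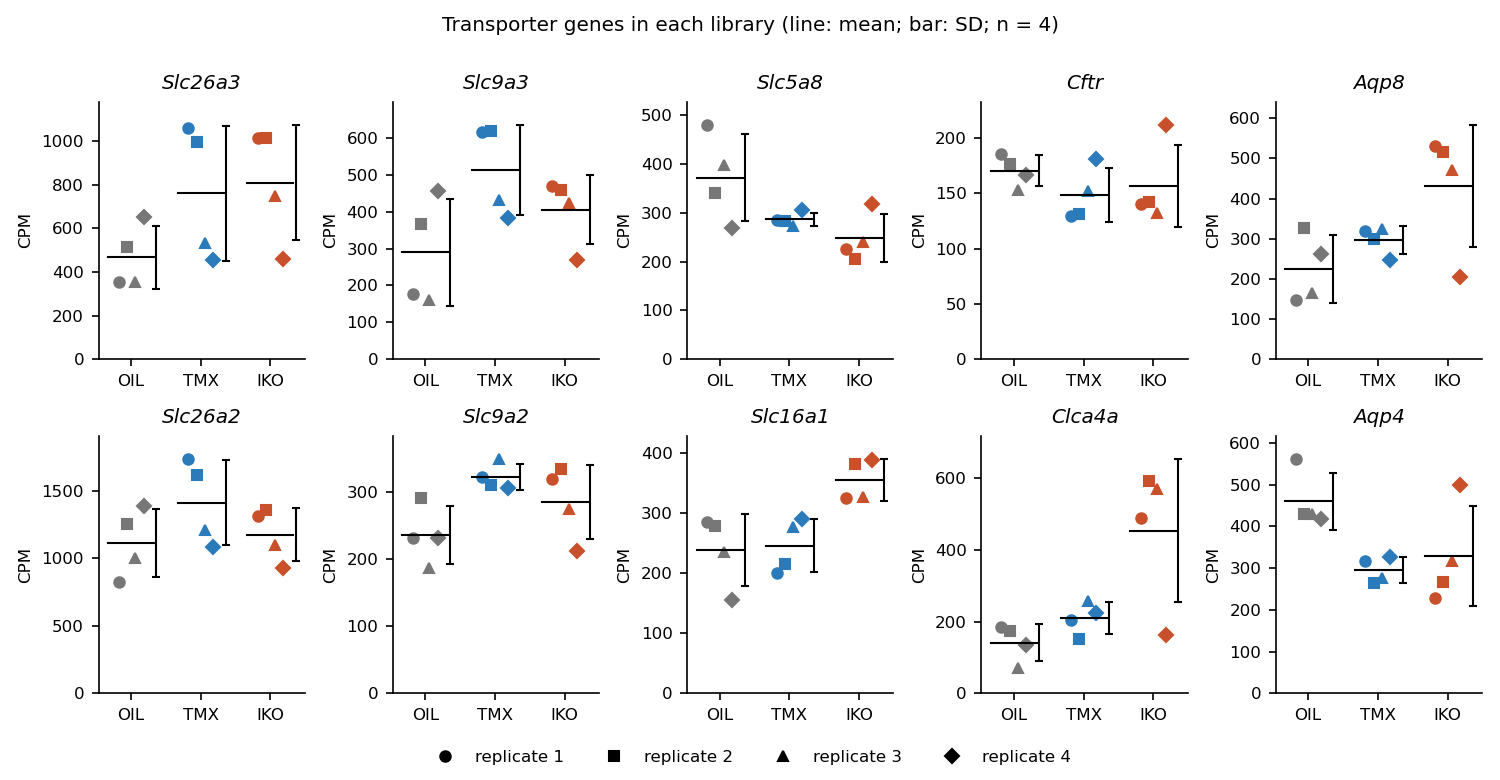
CPM of each of the 10 transporter genes in Control-OIL (OIL), Control-TMX (TMX) and EHF IKO (IKO), with 1 symbol per replicate number, the group mean as a line and the SD as a bar (n = 4). Slc16a1 is above all 8 controls in the 4 EHF IKO libraries, and EHF IKO replicate 4, the diamond, lies apart from the other 3 libraries in Clca4a, Aqp8, Aqp4 and Cftr.

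Clca4a showed the largest difference of the 10 genes. Clca4a (chromosome 3, 144952480 to 144975045, minus strand) belongs to the calcium-activated chloride channel regulators and has a close neighbour copy, Clca4b, so its counts rest on reads that map to 1 place. It stood at 185, 175, 71.1 and 134.9 CPM in Control-OIL, at 204, 152, 258 and 224 in Control-TMX and at 487, 591, 570 and 161 in EHF IKO. The first 3 EHF IKO libraries were higher than all 8 controls, and replicate 4 was within the range of both control groups. The share of all genes with this pattern was not counted. Against Control-OIL alone 16.9% of genes did not overlap without replicate 4, and against Control-TMX alone 13.6%, in either direction. The log2 fold change was 1.68 ± 0.39 against Control-OIL (edgeR adjusted p = 0.0616), 1.11 ± 0.39 against Control-TMX (0.284) and 1.39 ± 0.32 against the mean of both controls (0.0574). DESeq2 called Clca4a against Control-OIL (adjusted p = 0.00425) and against the mean of both controls (adjusted p = 0.00745).

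Without EHF IKO replicate 4, Clca4a rose in edgeR by 1.95 against Control-OIL (adjusted p = 0.0049), by 1.39 against Control-TMX (adjusted p = 0.0429) and by 1.67 against the mean of both controls (adjusted p = 0.00396). Markers of connective tissue also differed between libraries. The 9 fibroblast markers summed to 328 to 443 CPM in Control-OIL, 448 to 768 in Control-TMX, compared with 830, 437, 1066 and 877 in EHF IKO replicates 1 to 4, with none at 0. Within EHF IKO, Clca4a was highest in replicate 2, where this sum was lowest, and lowest in replicate 4. The 6 smooth muscle markers summed to 47.8, 56.0, 75.2 and 21.1 CPM in EHF IKO replicates 1 to 4, 14.8 to 40.3 in Control-OIL and 39.6 to 93.2 in Control-TMX. The stromal score over fibroblast, smooth muscle and endothelial markers was -0.262 in EHF IKO replicate 4 and 0.234 to 0.613 in the other 3. It was 0.0773 to 0.365 in Control-TMX and below -0.3 in each Control-OIL library. Every Control-OIL library was thus below all others. For any gene, a fit with this score cannot tell a stromal difference from the group difference against Control-OIL. Such a fit called 0.203% of all genes against Control-OIL. With that score as a covariate the difference in Clca4a from Control-OIL was 0.09 (edgeR adjusted p = 0.971) and that from Control-TMX 0.94 (0.152). Over the 12 libraries Clca4a correlated with the stromal score at 0.80 and with the surface colonocyte score at 0.83.

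Cftr differed little between groups. It stood at 185, 176, 153.1 and 167 CPM in Control-OIL, at 129, 132, 152 and 181 in Control-TMX and at 140, 142, 132 and 212 in EHF IKO, so that the highest value of all 12 libraries was in EHF IKO replicate 4. The log2 fold change was -0.12 ± 0.15 against Control-OIL (95% interval -0.44 to 0.19) and 0.07 ± 0.15 against Control-TMX (-0.24 to 0.39). Without replicate 4 the values were -0.31 (edgeR adjusted p = 0.184) and -0.11 (0.762), and the sign against Control-TMX changed. The summed level of 12 stem and proliferation markers was 1141 CPM in EHF IKO replicate 4, 725 to 901 in the other 3 EHF IKO libraries, 796 to 895 in Control-OIL and 424 to 934 in Control-TMX. The part of these markers in the Cftr values was not tested.

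The aquaporins differed in opposite directions. Aqp8 (chromosome 7, 123462291 to 123468004, plus strand) stood at 148, 328, 164 and 261 CPM in Control-OIL, at 319, 298, 326 and 247 in Control-TMX and at 531, 517, 471 and 206 in EHF IKO. As with Clca4a, 3 EHF IKO libraries were above all controls, a pattern whose share of all genes was not counted. EHF IKO replicate 4 was within the range of the controls. The log2 fold change was 0.94 ± 0.30 against Control-OIL (edgeR adjusted p = 0.172), 0.54 ± 0.30 against Control-TMX (0.519) and 0.74 ± 0.25 against the mean of both controls (0.215). DESeq2 called Aqp8 against Control-OIL with an adjusted p of 0.0279. Once EHF IKO replicate 4 was left out, Aqp8 rose by 1.16 against Control-OIL (edgeR adjusted p = 0.0127) and by 0.97 against the mean of both controls (0.0197), while the value against Control-TMX was 0.77 (0.150). With the surface colonocyte score as a covariate the value against Control-OIL over all libraries was 0.21 (0.696), and with the stromal score it was -0.34 (0.767).

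Aqp4, a basolateral water channel, stood at 561, 430, 431 and 418 CPM in Control-OIL, at 317, 264, 275 and 327 in Control-TMX and at 229, 267, 318 and 500 in EHF IKO. Control-TMX lay below Control-OIL with no overlap, with a log2 fold change of -0.64 ± 0.19 (edgeR adjusted p = 0.237), beside 3.2% of all genes tested. EHF IKO replicates 1 to 3 were in or below the Control-TMX range, and replicate 4 was in the Control-OIL range. EHF IKO differed from Control-OIL by -0.49 ± 0.19 (0.302) and from Control-TMX by 0.15 ± 0.19 (0.819). Without replicate 4, Aqp4 fell by 0.76 against Control-OIL (edgeR adjusted p = 0.00648), whereas the value against Control-TMX was -0.13 (0.756). With the stromal score as a covariate over all libraries the sign against Control-OIL was the opposite (0.09, 0.936), and with the surface colonocyte score the value was -0.19 (0.714). Aqp4 correlated with these scores at -0.84 over the 12 libraries. The fit without EHF IKO replicate 4 also called the fall of 0.64 in Control-TMX against Control-OIL (edgeR adjusted p = 0.0380). Over all libraries that difference was -0.04 (0.990) with the stromal score and -0.29 (0.594) with the surface colonocyte score. With the region score it passed (-0.72, edgeR adjusted p = 0.0404). Per kilobase, the ratio of Aqp8 to Aqp4 was 1.04 to 3.00 in Control-OIL, 2.98 to 4.66 in Control-TMX, compared with 9.14, 7.63, 5.83 and 1.62 in EHF IKO replicates 1 to 4.

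EHF IKO replicate 4 lay outside the range of the other 3 EHF IKO libraries for all 10 genes, below them for 6 and above them for 4, beside 70.4% of all genes tested. It was within the range of the 8 control libraries for 8 of the 10, the exceptions being Slc16a1 and Cftr. Without it, 4 members were called against Control-OIL (4.41% of 16139 genes then tested), 1 against Control-TMX (1%), 3 against the mean of both controls (3.23%) and 1 between the controls (0.415%). Without it the 3 other EHF IKO libraries did not overlap Control-OIL for 7 members, 4 higher and 3 lower, beside 16.9% of all genes tested, and did not overlap Control-TMX for 4 members, 3 higher and 1 lower, beside 13.6%.

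The 10 genes fell into sets that varied together across the 12 libraries, chosen after the values were seen and described without a test. Slc26a3, Slc26a2, Slc9a3, Slc9a2, Clca4a and Aqp8 had a positive Pearson correlation of log2 CPM in 15 of 15 pairs, with a median of 0.737. Slc5a8, Cftr and Aqp4 had one in 3 of 3 pairs, from 0.559 to 0.806. Between the sets 18 of 18 pairs were negative, with a median of -0.711. Taken as deviations from group means, the medians were 0.735 within the first set and -0.641 between the sets, and over the 11 libraries without EHF IKO replicate 4 they were 0.712 and -0.682. Slc16a1 belonged to neither set, with 4 positive and 5 negative correlations. All points share the same libraries, and the surface colonocyte score correlated with the first set at 0.634 to 0.915 and with Slc5a8, Cftr and Aqp4 at -0.844 to -0.666. The stromal score did so at 0.487 to 0.8155 and at -0.839 to -0.652, so the 2 scores cannot be told apart here.

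**Figure D4:**
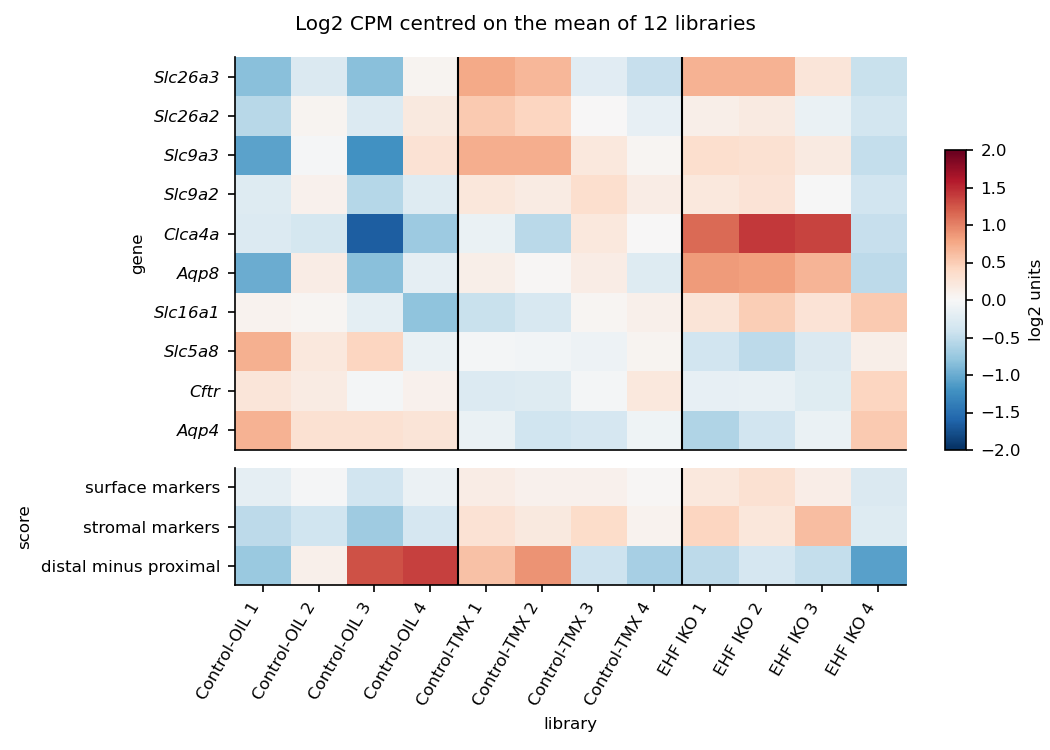
Log2 CPM of the 10 transporter genes in each of the 12 libraries, centred on the gene's mean over all libraries and coloured from -2 to 2, with the surface, stromal and distal minus proximal marker scores below. EHF IKO replicate 4 shows the opposite colours to EHF IKO replicates 1 to 3 for most genes, and Slc16a1 is high in all 4.

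By likeness of pattern, measured as Pearson's r of log2 CPM over the 12 libraries among 11777 genes, Slc16a1 was most like Nqo1 (0.980), Cyp2j9 (0.963) and Cyp2j6 (0.956). Clca4a was most like Cast (0.975), Rhod (0.969) and Rassf3 (0.951), and Aqp8 was most like Fosb (0.963). The gene most like Slc26a3 was Ly6m (0.963), that most like Slc5a8 was Mptx1 (0.958), and that most like Aqp4 was Ddx21 (0.943). None of the 10 members was among the 3 genes most like another member.

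The 250 bases upstream of the RefSeq start were available for 6 of the 10 genes, and 3 are shown, those of the member that was higher in all 4 EHF IKO libraries, of the most abundant member and of the leading chloride/bicarbonate exchanger. ETS factors such as Ehf recognise a core of GGAA, written TTCC on the other strand, and capitals mark each such core. The windows are on the plus strand of GRCm38.p6 at chr3:104638414-104638663 for Slc16a1, chr7:123462044-123462293 for Aqp8 and chr12:31437969-31438218 for Slc26a3, 5′ to 3′. The Slc26a3 window lies inside the span counted for that gene (31390871 to 31473917), so its RefSeq start is not the start of that span.
Slc16a1: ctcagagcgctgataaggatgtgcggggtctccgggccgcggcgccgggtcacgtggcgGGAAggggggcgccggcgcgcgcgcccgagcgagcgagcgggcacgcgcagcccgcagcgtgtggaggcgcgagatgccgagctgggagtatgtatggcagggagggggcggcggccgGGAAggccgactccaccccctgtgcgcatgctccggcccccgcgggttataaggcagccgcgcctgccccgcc
Aqp8: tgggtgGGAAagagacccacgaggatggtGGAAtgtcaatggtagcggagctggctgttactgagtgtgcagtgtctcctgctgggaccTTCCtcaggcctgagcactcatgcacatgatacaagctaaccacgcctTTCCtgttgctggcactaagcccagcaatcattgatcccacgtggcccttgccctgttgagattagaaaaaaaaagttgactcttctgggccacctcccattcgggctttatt
Slc26a3: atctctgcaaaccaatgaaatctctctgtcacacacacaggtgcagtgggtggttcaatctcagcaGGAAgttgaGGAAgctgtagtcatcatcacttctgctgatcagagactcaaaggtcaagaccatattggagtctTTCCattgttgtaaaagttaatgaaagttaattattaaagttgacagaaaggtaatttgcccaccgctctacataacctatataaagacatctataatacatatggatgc
The core occurred 2 times in the Slc16a1 window, 4 times in that of Aqp8 and 3 times in that of Slc26a3, and at least once in all 6 windows, as in 93.4% of 32851 RefSeq windows of the same length. The longer AGGAAG, which contains the core, on either strand, was in 4 of the 6, among them Aqp8 and Slc26a3 but not Slc16a1, and in 29.5% of all windows. CGGAAG, which also contains the core, was in 0 of the 6 and in 13.6% of all windows.

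Related genes from 5 further lists mostly did not pass the test. Of all genes tested, 0.921% rose and 0.762% fell against Control-OIL, 0.33% rose and 0.47% fell against Control-TMX, and 0.858% rose and 0.858% fell against the mean of both controls. Of 9 tested Slc26 and Slc4 genes other than the members (16 listed), edgeR called 0 in any comparison, and DESeq2 called 1, Slc4a2 in Control-TMX against Control-OIL (adjusted p = 0.0373). The log2 fold change was below 0 for 6 of 9 against Control-OIL and 8 of 9 against Control-TMX, beside 51.3% and 47.4% of all genes tested, with medians of -0.11 and -0.39. In Control-TMX against Control-OIL it was below 0 for 2 of 9, beside 51.5%, with a median of 0.38. At the highest level per length in this list was Slc4a2, a basolateral anion exchanger, with 277 ± 42.8, 386 ± 43.4 and 297 ± 35.9 CPM in Control-OIL, Control-TMX and EHF IKO (SD, n = 4 each). Of 15 tested monocarboxylate carriers, chaperones and fatty acid receptors (19 listed), 0 were called by edgeR or DESeq2. Their most highly expressed gene per length was Bsg, the chaperone that brings Slc16a1 to the membrane, with 274 ± 44.4, 280 ± 42.1 and 259 ± 24.8 CPM. Of 2 tested other aquaporins (9 listed), edgeR called 0 and DESeq2 called Aqp11 in Control-TMX against Control-OIL (0.45 in edgeR, DESeq2 adjusted p = 0.0261), and Aqp1 had 41.9 ± 18.6, 52.7 ± 10.9 and 54.0 ± 5.07 CPM.

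Among 12 tested proton exchangers and their partners (15 listed), 1 rose and 0 fell against Control-OIL and 0 rose and 1 fell against Control-TMX and against the mean of both controls, by edgeR. DESeq2 called 4, 2 and 2. Slc9a3r2, a scaffold that binds Slc9a3, fell by 1.19 ± 0.25 on the log2 scale against Control-TMX (edgeR adjusted p = 0.0355) and by 1.09 ± 0.22 against the mean (0.0199). It stood at 10.1, 9.63, 5.86 and 4.54 CPM in Control-OIL, at 7.77, 9.76, 8.90 and 8.13 in Control-TMX and at 3.26, 3.17, 4.39 and 4.30 in EHF IKO, with every EHF IKO library below every control, beside 1.23% of all genes tested. Against Control-OIL the value was -0.98 ± 0.25 (0.0610). Without EHF IKO replicate 4 Slc9a3r2 fell by 1.26 against Control-TMX (edgeR adjusted p = 0.0358) and by 1.16 against the mean (0.0212). Leaving out EHF IKO replicate 1, 2 or 3 ended both calls, with 0.107, 0.113 and 0.0815 against Control-TMX and 0.0876, 0.086 and 0.0564 against the mean, and without any 1 of the Control-TMX libraries the former did not pass. The replicate block over all libraries ended both calls (0.0859 and 0.0626), the block over Control-TMX and EHF IKO alone kept the former (0.0102), and the stromal score as a covariate ended the latter (-1.06, 0.135). Ezr, which encodes the membrane and actin linker ezrin and was the most highly expressed gene of the list per length, rose by 0.61 ± 0.15 against Control-OIL (edgeR adjusted p = 0.0485), from 497 ± 95.4 to 758 ± 119 CPM. Against Control-TMX the value for Ezr was 0.29 ± 0.15 (0.456). With EHF IKO replicate 4 left out, Ezr rose by 0.70 against Control-OIL (edgeR adjusted p = 0.0117), and leaving out any other library but Control-OIL replicate 2 ended the call, with an adjusted p of 0.116, 0.124 and 0.172 without EHF IKO replicates 1 to 3. With the stromal score as a covariate the value for Ezr was 0.18 (0.820).

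Among 23 tested genes of other chloride channels and chloride secretion (24 listed), 1 rose and 1 fell against Control-OIL and 0 were called in the other comparisons, by edgeR. DESeq2 called 2 against Control-OIL and 1 in each of the others. Ano10, of the anoctamin family, rose by 0.63 ± 0.14 against Control-OIL (edgeR adjusted p = 0.0386), from 54.8 ± 10.5 to 84.8 ± 15.4 CPM. Kcne3, the potassium channel subunit that sustains chloride secretion, fell by 0.64 ± 0.15 (edgeR adjusted p = 0.0455), from 87.7 ± 13.1 to 56.2 ± 11.1 CPM. Against Control-TMX the values were 0.11 ± 0.14 for Ano10 and -0.33 ± 0.15 for Kcne3, neither past the test. Without EHF IKO replicate 4 Ano10 rose by 0.74 (edgeR adjusted p = 0.00515) and Kcne3 fell by 0.775 (0.00769) against Control-OIL. If EHF IKO replicate 1, 2 or 3 was left out neither passed, with 0.109, 0.128 and 0.117 for Ano10 and 0.117, 0.146 and 0.152 for Kcne3. Of the controls, leaving out any but Control-OIL replicate 2 and Control-TMX replicate 4 ended the call of Ano10, and leaving out any but Control-OIL replicate 4 and Control-TMX replicates 2 and 4 ended that of Kcne3. With the stromal score as a covariate the values against Control-OIL were 0.18 (0.826) and -0.23 (0.779). Clca1, a goblet cell product with the highest level per length in the list, had 3088 ± 982 CPM in Control-OIL, 3925 ± 260 in Control-TMX, compared with 4276 ± 1084 in EHF IKO, and was not called by edgeR or DESeq2.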

How the data were processed

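Counts of reads per gene were deposited by the authors for 12 libraries of mouse colonic epithelium. Per the file headers, they were made with featureCounts 1.6.1 (Subread) over exons of Ensembl GRCm38 release 98 by gene name, unstranded, leaving out multi-mapping reads and reads assigned to more than 1 gene. Per the submitters' processing notes, reads were aligned with STAR (version not given in the sources used here). Exon lengths per gene, used for levels per kilobase, also come from the deposited files.

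Groups came from the sample titles. The test was run in edgeR 4.0.16 under R 4.3.3: TMM factors, filterByExpr by group, and 1 robust quasi-likelihood fit of all 12 libraries in 3 groups (9 residual degrees of freedom, common biological coefficient of variation 18.3%), with Benjamini-Hochberg adjustment over 15743 genes and a threshold of 0.05. Adjusted p-values in brackets come from this test unless another is named. CPM values are scaled by the TMM factors, and log2 CPM used a prior count of 2. The script was tested on simulated data. Whether replicate numbers pair libraries was checked by correlating their deviations from group means. All 4 same-numbered Control-TMX and EHF IKO pairs were positive (0.12 to 0.458), and the block over those 2 groups was run on this basis. Same-numbered pairs with Control-OIL were mixed (-0.424 to 0.230). The numbers also follow sex, with Xist high in replicates 1 and 2 of every group. Different-numbered Control-TMX and EHF IKO pairs of the same sex were positive too (0.0364 to 0.249). The check therefore cannot tell pairing from sex. The members and the gene and marker lists were chosen with earlier results of these data known. Of each related list, the genes named were those called in any comparison and the one with the highest level per length. For likeness of pattern, the 3 genes with the highest r were named among those averaging at least 1 in log2 CPM, skipping Gm-number and Rik symbols. Markers were listed for 12 cell types or colon regions, and Prac1 was not used here.

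Alternatives were DESeq2 size factors, no filter, DESeq2 1.42.0, limma-voom (limma 3.58.1), a minimum average log2 CPM of 1, only the groups compared, a replicate block, marker scores as covariates and leaving out each library. Sex as a covariate and the block over Control-TMX and EHF IKO alone were added after seeing the data. Promoter windows are from RefSeq on GRCm38.p6, in which 6 of the 10 members matched.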

Additional observations from a re-analysis of the deposited data

Results flagged for a closer look

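In groups of 4 libraries, a library was singled out where its gap to the nearest other, as a share of the group's range, passed Dixon's 95% critical value, a rule that chance meets in about 1 in 20 groups. It was applied to 45 gene and group pairs, and it singled out 5.36% of all tested genes in Control-OIL, 4.22% in Control-TMX, with 5.36% for EHF IKO. Cftr in EHF IKO replicate 4 stood at 212 CPM, above 132 to 142 CPM in the other 3 libraries of that group. Aqp4 in Control-OIL replicate 1 stood at 561 CPM, above 418 to 431 CPM in the other 3.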

How the results depend on the processing

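edgeR called no member over all libraries. Without a filter 3, 1, 2 and 2 members were called against Control-OIL, against Control-TMX, against the mean of both controls and between the controls. DESeq2 called 3 and 2 against Control-OIL and the mean, the region score as a covariate gave 2 against Control-OIL, 1 against the mean and 1 between the controls, and an average log2 CPM of at least 1 gave 1 against the mean. Leaving out 1 library gave 0 to 4, 0 to 1, 0 to 3 and 0 to 1 members, the highest each time without EHF IKO replicate 4. The cause was not tested.

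The number of genes tested differed between settings, so calls over all genes are given as a percent of the genes tested, with the count in parentheses. They were 1.68% (265), 0.800% (126), 1.72% (270) and 0.0826% (13) of 15743 genes. Without a filter they were 1.76% (724), 1.21% (500), 2.02% (831) and 1.07% (441) of 41205, and with DESeq2 3.39% (534), 1.94% (305), 2.99% (471) and 1.25% (197). The stromal score gave 0.203% (32), 1.21% (190), 0.813% (128) and 0.0381% (6). The surface score gave 1.04% (164) against Control-OIL, 1.80% (284) against Control-TMX and 0.0381% (6) between the controls, and the region score 3.37% (530) against Control-OIL and 4.58% (721) between the controls. Fitting only the groups compared gave 0.740% of 15129 genes against Control-OIL. Between the controls an average log2 CPM of at least 1 gave 0.0358% (5 of 13978) and sex as a covariate, added after seeing the data, 0.241% (38). Leaving out 1 library gave 0.650% to 4.41%, 0.312% to 1.00%, 0.670% to 3.23% and 0.0187% to 0.415%. Fitting only the groups compared was not run for the mean of both controls.

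With the replicate number as a block over all libraries, 1.099% (173), 0.457% (72) and 0.940% (148) of genes were called in the 3 comparisons of EHF IKO, and 0 members. The block over Control-TMX and EHF IKO alone, whose same-numbered libraries deviated together, called 1.92% (292) of 15188 genes and 1 member, Slc16a1. Among the related genes, the edgeR calls of Slc9a3r2, Ezr, Ano10 and Kcne3 were each lost under several alternatives, among them leaving out EHF IKO replicate 1, 2 or 3.

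Signs changed in these cases on the log2 scale, none of them in a value that had passed the test. With the stromal score they were, against Control-OIL, Slc26a3 -0.167, Slc26a2 -0.359, Slc9a3 -0.490, Slc9a2 -0.207, Cftr 0.338, Aqp8 -0.336 and Aqp4 0.0886. Against the mean they were Slc26a3 -0.0644, Slc9a3 -0.436, Slc9a2 -0.202, Cftr 0.203 and Aqp4 0.111. Between the controls they were Slc26a3 -0.205, Slc26a2 -0.0809, Slc9a3 -0.107, Slc9a2 -0.0097, Slc5a8 0.0905, Cftr 0.269, Clca4a -0.850, Aqp8 -0.775, Ezr -0.0904 and Kcne3 0.0974. With the surface score they were, against Control-OIL, Slc26a2 -0.225, Slc9a3 -0.0484, Slc9a2 -0.0580 and Cftr 0.0679, against the mean Slc9a3 -0.207, Slc9a2 -0.131 and Cftr 0.0650, and between the controls Cftr 0.00564, Clca4a -0.199 and Aqp8 -0.229. With the region score they were Slc26a2 0.192 against the mean, Cftr -0.0758 and Aqp4 -0.0186 against Control-TMX, Slc16a1 -0.0713 between the controls and Clca4b 0.787 against Control-OIL. Leaving out 1 library gave -0.0927 to 0.289 for Slc26a3, -0.108 to 0.186 for Cftr and -0.126 to 0.291 for Aqp4 against Control-TMX, and -0.0489 to 0.198 for Slc26a2 and -0.875 to 0.226 for Clca4b against Control-OIL. Against the mean it gave -0.0294 to 0.230 for Slc9a3, -0.0336 to 0.166 for Slc9a2 and -0.208 to 0.0473 for Cftr, and between the controls -0.120 to 0.140 for Slc16a1.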

Other observations

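Clca4b, the neighbour of Clca4a on chromosome 3, lies outside the rule for named genes and was chosen after its values were seen. It stood at 50.3, 17.3, 112.4 and 211 CPM in Control-OIL, at 6.21, 8.90, 5.51 and 5.61 in Control-TMX and at 77.6, 58.5, 119 and 24.2 in EHF IKO. Every Control-TMX library was below every library of the other groups. Of all genes tested, 3.2% were lower in Control-TMX than in Control-OIL with no overlap. The share lower than both groups was not counted. Control-TMX differed from Control-OIL in the source name prefix and tamoxifen, and from EHF IKO in the prefix and the deletion. The part of each was not tested. The log2 fold change was -3.91 ± 0.82 in Control-TMX against Control-OIL (edgeR adjusted p = 0.145 and DESeq2 adjusted p = 2.21e-05) and 3.42 ± 0.81 in EHF IKO against Control-TMX (edgeR adjusted p = 0.118 and DESeq2 adjusted p = 1.55e-04). Without EHF IKO replicate 4 the latter was 3.70 (edgeR adjusted p = 0.0880), and with the replicate block over those 2 groups alone Clca4b passed (3.23, edgeR adjusted p = 0.0342). The highest library of each group differed between the copies: Clca4a was highest in Control-OIL replicate 1 and Clca4b in Control-OIL replicate 4.

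Per kilobase, the ratio of Clca4a to Cftr was 1.20 to 2.58 in Control-OIL, 2.99 to 4.39 in Control-TMX and 9.01, 10.8, 11.1 and 1.97 in EHF IKO replicates 1 to 4. The ratio of Slc26a3 to Slc26a2 was 0.684 to 0.911 in Control-OIL, 0.820 to 1.20 in Control-TMX and 0.962 to 1.502 in EHF IKO. EHF IKO thus lay above Control-OIL in every library and overlapped Control-TMX. For Slc9a3 to Slc9a2, EHF IKO (1.595 to 1.952) lay inside Control-OIL (0.968 to 2.496). For Slc26a3 to Slc5a8, EHF IKO (1.21 to 4.14) overlapped Control-OIL (0.616 to 2.03) and Control-TMX (1.25 to 3.11). None of these ratios, nor that of Aqp8 to Aqp4, was tested or set beside other gene pairs.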
